A study of Mus musculus with 12 samples.

Results

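A set of 10 genes of the TGF-beta ligand and receptor system was followed in the left ventricle of adult mice in which Nkx2-5 had been deleted in the trabecular myocardium before birth. They were the ligands Tgfb1, Tgfb2 and Tgfb3, the receptors Tgfbr1, Tgfbr2 and Acvrl1, the co-receptors Tgfbr3 and Eng, and the latency proteins Ltbp1 and Ltbp2. The genes were chosen by name, as all probes of the array whose gene name equals one of these 10. This gave 16 of the 55681 probes and 10 of the 34844 gene names on the array. Of these, 12 probes were above background often enough to be tested, and they covered all 10 genes (24593 probes and 18021 gene names over the whole array).

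The 12 arrays each held total RNA from the left ventricle, taken as free wall and apex, of 1 mouse aged 6 months, with 4 mice per group. In the Nkx2-5ΔTrbE10 mice (TrbE10, called Nkx2-5Δtrab in the sample labels) tamoxifen had been given to the mothers at E10.5 and E11.5, and in the Nkx2-5ΔTrbE14 mice (TrbE14, called Nkx2-5Δcomp in the labels) at E13.5 and E14.5. Both mutants carried floxed Nkx2-5-Δneo alleles and Cx40-creERT2, a tamoxifen-dependent Cre in the Cx40 locus that is broadly active in embryonic trabecular myocardium, so other cells of the ventricle kept Nkx2-5. For the controls the labels state that no tamoxifen was injected, whereas the study's methods describe littermates with floxed Nkx2-5-Δneo alleles that lack the Cre and are wild type at Cx40. The methods describe caesarean delivery and fostering by CD1 females for newborns of tamoxifen-treated mothers. If the controls were not injected, tamoxifen, and possibly delivery and fostering, cannot be told apart from the deletion. The same holds for the Cre and the Cx40 allele, which the controls of the methods lack or carry as wild type. Control and TrbE14 arrays lay on slide 1, in separate rows, and TrbE10 arrays lay on slide 2, so slide and group cannot be told apart for TrbE10.

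The TGF-beta ligands are secreted bound to a propeptide and to a latent TGF-beta binding protein, which holds them in the extracellular matrix until they are released. Released ligand brings the type II receptor TGFBR2 together with a type I receptor, and the type I receptor then phosphorylates SMAD proteins that enter the nucleus. In most cells the type I receptor is TGFBR1 (ALK5) and the SMADs are SMAD2 and SMAD3. In endothelial cells ALK1, the product of Acvrl1, takes up BMP9, BMP10 or TGF-beta with the help of endoglin and acts through SMAD1, SMAD5 and SMAD8. In the heart this system is known for its roles in endocardial cushion formation and in fibrosis.

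The arrays carry 60-base probes, and the probes on which the results turn are shown here so that the measured stretch of each transcript can be seen. Coordinates are those of the array design on mm9, and the annotation of exons and untranslated regions on that build was not used here. For Tgfb2 the main probe lay at chr1:188449333-188449392 on the minus strand. That of Tgfb1 lay at chr7:26489877-26489936 on the plus strand, of Tgfb3 at chr12:87397804-87397863 on the minus strand, of Eng at chr2:32537268-32537327 on the plus strand, of Ltbp1 at chr17:75790530-75790589 on the plus strand and of Ltbp2 at chr12:86124167-86124226 on the minus strand. The probes of Tgfb1 and Tgfb2 are given whole and the others by their first 30 bases, each 5′ to 3′ as the array design lists it.
Tgfb1: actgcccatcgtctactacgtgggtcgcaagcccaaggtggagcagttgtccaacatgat
Tgfb2: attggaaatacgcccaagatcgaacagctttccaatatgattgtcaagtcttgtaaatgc
Tgfb3: tcccatgtctgacatgatgactcggcccca
Eng: tacagaactgcccaatccaggggctctggg
Ltbp1: ggaagtggaagagcttcatagagtttatta
Ltbp2: aaatgcacttccatacaagctagctggggg

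Values are log2 of the scanner's processed signal after quantile normalization, given for hearts 1 to 4 of each group, and a difference of 1 is a doubling. Changes are given with the standard error (SE) or the 95% confidence interval of limma, and a gene was called when its p adjusted over all tested probes was under 0.05. An exact permutation test of 4 against 4 hearts cannot give a p below 0.0286, which is reached when the groups do not overlap. Nkx2-5 itself, the deleted gene, had log2 signals of 11.95, 12.23, 11.93 and 11.89 in control hearts, 11.27, 11.67, 11.21 and 11.22 in TrbE10 hearts and 11.12, 11.57, 11.32 and 11.63 in TrbE14 hearts. All mutant hearts lay below all control hearts, with a change of -0.66 in TrbE10 (limma, adjusted p = 0.0459) and -0.59 in TrbE14 (adjusted p = 0.106). The Y-linked Ddx3y was above background in 1 control, 2 TrbE10 and 3 TrbE14 hearts, so the sexes were not evenly spread over the groups, and values within each sex are given where they bear on a result.

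In both mutants, Eng, Tgfb2, Tgfb3 and Ltbp2 had higher mean signals than in controls, Ltbp1 had a lower one, and Tgfb1, Tgfbr2, Tgfbr3 and Acvrl1 differed from control by at most 0.21 on the log2 scale. Tgfbr1 passed the unadjusted p in TrbE10 and not in TrbE14. After adjustment over all probes 1 of the 10 genes was called, Eng in TrbE10. In TrbE10 the share of all tested probes called was 1.69%. By an unadjusted p under 0.05, 6 of the 10 passed in TrbE10, 5 higher and 1 lower, where 16.4% of all probes did. Groups that did not overlap were found for 5 of 10 genes, 4 above control and 1 below, against 10.1% of all probes. In TrbE14 none of the 10 was called by limma (0 of 10) and 1, Eng, by SAM, another method that permutes labels and that did not call Eng in TrbE10 (adjusted p = 0.0532). By limma 4 of 10 passed the unadjusted p, all higher, and the 4 mutant hearts lay above all controls for 4 of 10. The shares over all probes in TrbE14 were 0.602% called, 13.6% by unadjusted p and 9.43% without overlap. The median log2 change of the 10 genes was 0.26 in TrbE10 and 0.18 in TrbE14, beside -0.0249 and -0.0308 over all 18021 genes. Both comparisons share the same 4 control hearts. The 10 genes were chosen with earlier results of these data known, so their counts beside these shares are descriptions and no test of the set. Each gene was counted by its tested probe of highest mean signal, whereas the shares are over all tested probes.

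**Figure D1:**
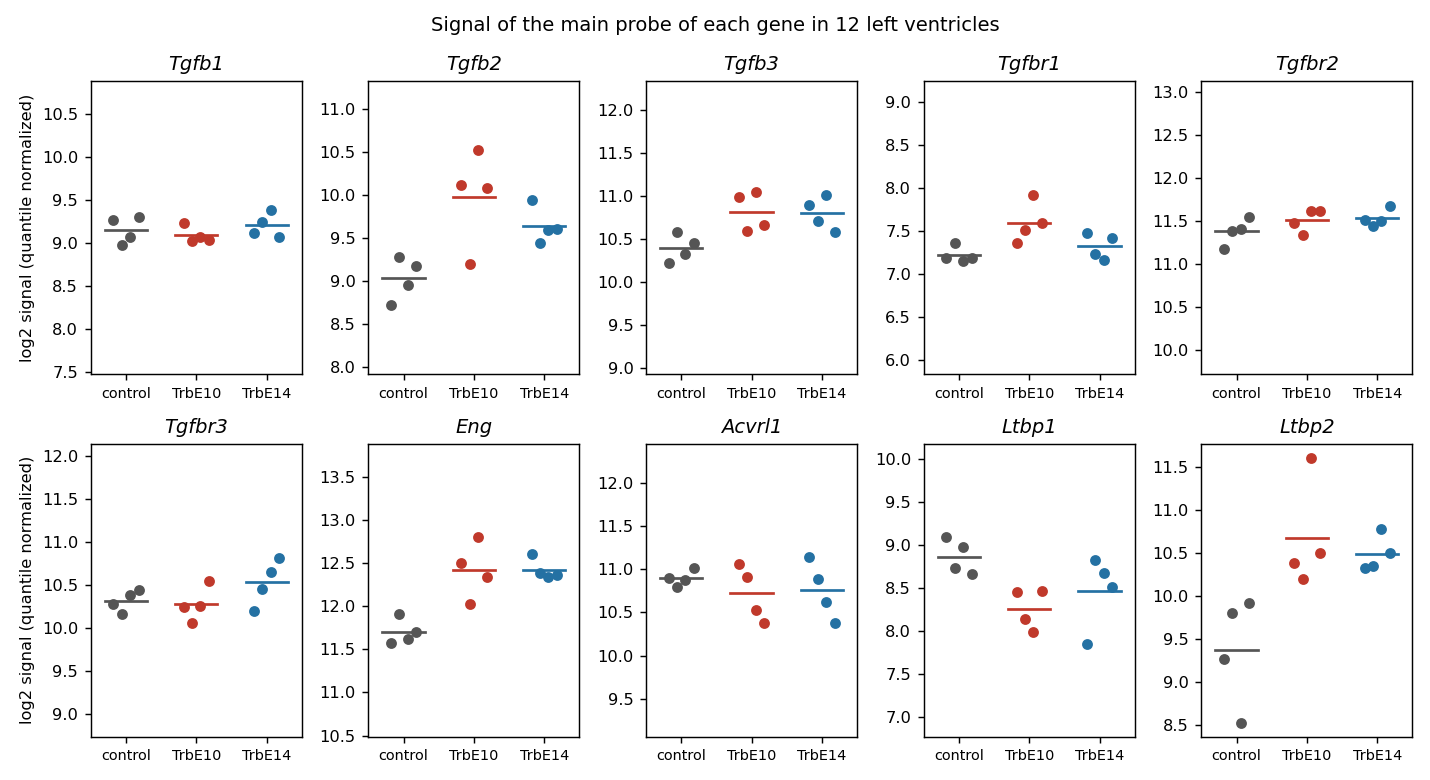
Log2 signal (y axis, quantile normalized, each panel spanning the same number of log2 units) of the main probe of 10 genes in control, TrbE10 and TrbE14 hearts (x axis). Points are single hearts and lines are group means of 4. The mutant hearts lie above all controls for Eng, Tgfb3 and Ltbp2, while Tgfb1 overlaps throughout.

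Among the ligands the largest mean change was that of Tgfb2, the form used by endocardium and myocardium in cushion formation. Its log2 signal was 8.72, 9.28, 8.95 and 9.18 in control hearts, 10.11, 9.20, 10.52 and 10.08 in TrbE10 hearts and 9.94, 9.44, 9.59 and 9.60 in TrbE14 hearts. Replicates 1, 3 and 4 of TrbE10 lay above all controls and replicate 2 lay within them, whereas all TrbE14 hearts lay above all controls. In TrbE10 the log2 change was 0.95 (SE 0.24), or 1.93-fold, with an adjusted p of 0.0819 in limma and an exact permutation p of 0.0571 (two-sided). In TrbE14 it was 0.61 (SE 0.24), or 1.53-fold, with an adjusted p of 0.313 in limma and an exact permutation p of 0.0286. Neither passed the threshold. Leaving out 1 heart at a time put the TrbE10 change at 0.76 to 1.21, the extremes being the fits that lacked replicate 3 and replicate 2 of TrbE10, with adjusted p from 0.00677 to 0.201 in limma. Tgfb2 was called in 1 of these 12 fits, the one lacking replicate 2. Of 10 other settings it was called in 1, with sex as a covariate (1.08, limma, adjusted p = 0.0168), and the mean of both probes gave 0.80.

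The sexes are compared for Tgfb2 in hearts with and without Ddx3y. Of the hearts with Ddx3y, the control had 8.72 and the TrbE10 hearts 9.20 and 10.08. Of those without, controls ranged from 8.95 to 9.28 and TrbE10 hearts from 10.11 to 10.52. Within each sex TrbE10 and control hearts therefore did not overlap, with 1 control heart in the Ddx3y-positive set. A second Tgfb2 probe, at chr1:188447534-188447593, gave a change of 0.65 in TrbE10 (limma, adjusted p = 0.146) and 0.42 in TrbE14 (adjusted p = 0.393), so both probes pointed the same way and neither was called.

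Tgfb3, the third ligand, had log2 signals of 10.22, 10.57, 10.33 and 10.45 in control hearts, 10.98, 10.59, 11.04 and 10.66 in TrbE10 hearts and 10.89, 10.71, 11.01 and 10.58 in TrbE14 hearts. All 8 mutant hearts lay above all 4 controls, although the lowest mutant values, 10.58 and 10.59, were next to the highest control value of 10.57. The change was 0.42 (95% interval 0.13 to 0.72) in TrbE10, with an adjusted p of 0.15 in limma, and 0.40 (0.10 to 0.70) in TrbE14, with an adjusted p of 0.247. With sex as a covariate the TrbE10 change was 0.49 and passed the threshold (limma, adjusted p = 0.0484).

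Tgfb1, the ligand most often studied in cardiac fibrosis, showed no such difference. Its log2 signals were 9.27, 8.98, 9.07 and 9.30 in control hearts, 9.23, 9.02, 9.07 and 9.03 in TrbE10 hearts and 9.11, 9.25, 9.38 and 9.07 in TrbE14 hearts, and the 3 groups overlapped throughout. The change was -0.06 (95% interval -0.29 to 0.16) in TrbE10 and 0.05 (-0.17 to 0.28) in TrbE14. The interval of Tgfb2 was 0.41 to 1.48 in TrbE10 and 0.07 to 1.15 in TrbE14, and it overlapped with that of Tgfb1 in TrbE14 only. Whether Tgfb1 and Tgfb2 changed differently was not tested. The probes of Tgfb1 and Tgfb3 were printed on 10 spots of each array, which gives the technical error: the SD between spots was 0.04 to 0.09 for Tgfb1 and 0.03 to 0.09 for Tgfb3. Between hearts of a group the SD was 0.10 to 0.16 for Tgfb1 and 0.15 to 0.22 for Tgfb3.

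Of the signalling receptors, Tgfbr1, which encodes the type I receptor ALK5, had log2 signals of 7.18, 7.36, 7.16 and 7.18 in control hearts, 7.36, 7.51, 7.92 and 7.59 in TrbE10 hearts and 7.48, 7.23, 7.16 and 7.42 in TrbE14 hearts. The TrbE10 hearts lay above all controls, the lowest of them (7.365) by little over the highest control (7.359), and the TrbE14 hearts overlapped with control. The change was 0.38 in TrbE10 (limma, adjusted p = 0.158) and 0.10 in TrbE14 (adjusted p = 0.729). Directly compared, TrbE10 exceeded TrbE14 by 0.28 (95% interval 0.01 to 0.55), with an adjusted p of 0.863 in limma, or by 0.17 without TrbE10 replicate 3. The other 3 Tgfbr1 probes stayed at background on all 12 arrays.

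Tgfbr2 and Acvrl1 overlapped between all groups. Tgfbr2, the type II receptor that binds the ligands first, ranged from 11.17 to 11.55 in control, 11.34 to 11.62 in TrbE10 and 11.45 to 11.68 in TrbE14 hearts, with changes of 0.13 (95% interval -0.09 to 0.36) and 0.16 (-0.07 to 0.38). Its second probe gave 0.21 and 0.06. Acvrl1, the endothelial type I receptor ALK1, ranged from 10.79 to 11.01 in control, 10.38 to 11.06 in TrbE10 and 10.37 to 11.14 in TrbE14 hearts. Its mean was lower by a change of -0.17 (95% interval -0.57 to 0.22) in TrbE10 and -0.14 (-0.54 to 0.26) in TrbE14. The hearts of each mutant were spread more widely than the controls (SD 0.32 and 0.33 against 0.09). This spread followed the replicate number: from 1 to 4 the signal fell as 11.06, 10.91, 10.53 and 10.38 in TrbE10. In TrbE14 it fell as 11.14, 10.89, 10.62 and 10.37. The reason for this shared order was not tested.

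Of the co-receptors, endoglin and betaglycan, the former was higher in both mutants by its mean. Eng, which encodes endoglin, an endothelial glycoprotein that presents ligand to ALK1, had log2 signals of 11.57, 11.91, 11.62 and 11.70 in control hearts, 12.51, 12.02, 12.80 and 12.33 in TrbE10 hearts and 12.61, 12.39, 12.34 and 12.37 in TrbE14 hearts. Every mutant heart lay above every control heart, and the closest pair was TrbE10 replicate 2 and control replicate 2. The change was 0.71 (SE 0.15), or 1.64-fold, in TrbE10, with an adjusted p of 0.0412 in limma, and 0.72 (SE 0.15), or 1.65-fold, in TrbE14, with an adjusted p of 0.0642. The exact permutation p was 0.0286 for each. Although only the former passed the threshold, the mutants did not differ detectably from each other, with a difference of -0.01 (95% interval -0.34 to 0.32).

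The TrbE10 call of Eng lay close to the threshold. Leaving out 1 heart at a time gave changes of 0.59 to 0.84 with adjusted p from 0.00937 to 0.108 in limma, and the gene was called in 1 of these 12 fits, the one without TrbE10 replicate 2. For TrbE14 the change stayed between 0.66 and 0.79, and it was called without TrbE10 replicate 2 (limma, adjusted p = 0.0279) and without TrbE10 replicate 3 (0.0347). With sex as a covariate Eng was called in both mutants, at 0.79 (limma, adjusted p = 0.00805) and 0.88 (adjusted p = 0.0101). Of hearts with Ddx3y, the control had 11.57, TrbE10 hearts 12.02 and 12.33 and TrbE14 hearts 12.34 to 12.39. Of hearts without it, controls ranged from 11.62 to 11.91, TrbE10 hearts from 12.51 to 12.80 and the TrbE14 heart had 12.61. Within each sex all mutant hearts thus lay above the controls.

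Tgfbr3, which encodes betaglycan, the co-receptor that binds Tgfb2 with the receptor TGFBR2, had log2 signals between 10.17 and 10.45 in control, 10.06 and 10.54 in TrbE10 and 10.21 and 10.82 in TrbE14 hearts. The change was -0.04 (95% interval -0.35 to 0.27) in TrbE10 and 0.21 (-0.10 to 0.53) in TrbE14, with adjusted p of 0.912 and 0.517 in limma, and the groups overlapped.

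The mean changes of the latency proteins had opposite signs. Ltbp2, a microfibril-associated protein that does not itself bind latent TGF-beta, had log2 signals of 9.27, 9.80, 8.53 and 9.92 in control hearts, 10.39, 10.19, 11.60 and 10.502 in TrbE10 hearts and 10.32, 10.35, 10.77 and 10.49 in TrbE14 hearts. All mutant hearts lay above all controls, and the controls were themselves spread over more than 1 log2 unit. The change was 1.29 (SE 0.34), or 2.45-fold, in TrbE10, with an adjusted p of 0.0888 in limma, and 1.11 (SE 0.34), or 2.15-fold, in TrbE14, with an adjusted p of 0.214. It was the largest mean change of the 10 genes in each mutant, and it was not called.

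Ltbp1, the protein that tethers latent TGF-beta to the matrix, had log2 signals of 9.10, 8.73, 8.97 and 8.66 in control hearts, 8.45, 8.14, 7.99 and 8.46 in TrbE10 hearts and 7.85, 8.83, 8.68 and 8.51 in TrbE14 hearts. All TrbE10 hearts lay below all controls, whereas TrbE14 replicates 2 and 3 lay within them. The change was -0.60 (SE 0.20) in TrbE10, with an adjusted p of 0.169 in limma, and -0.40 (SE 0.20) in TrbE14, with an adjusted p of 0.408. Without TrbE14 replicate 1, the lowest heart, the TrbE14 change was -0.19. Its second probe was above background on 2 arrays only and was not tested.

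**Figure D2:**
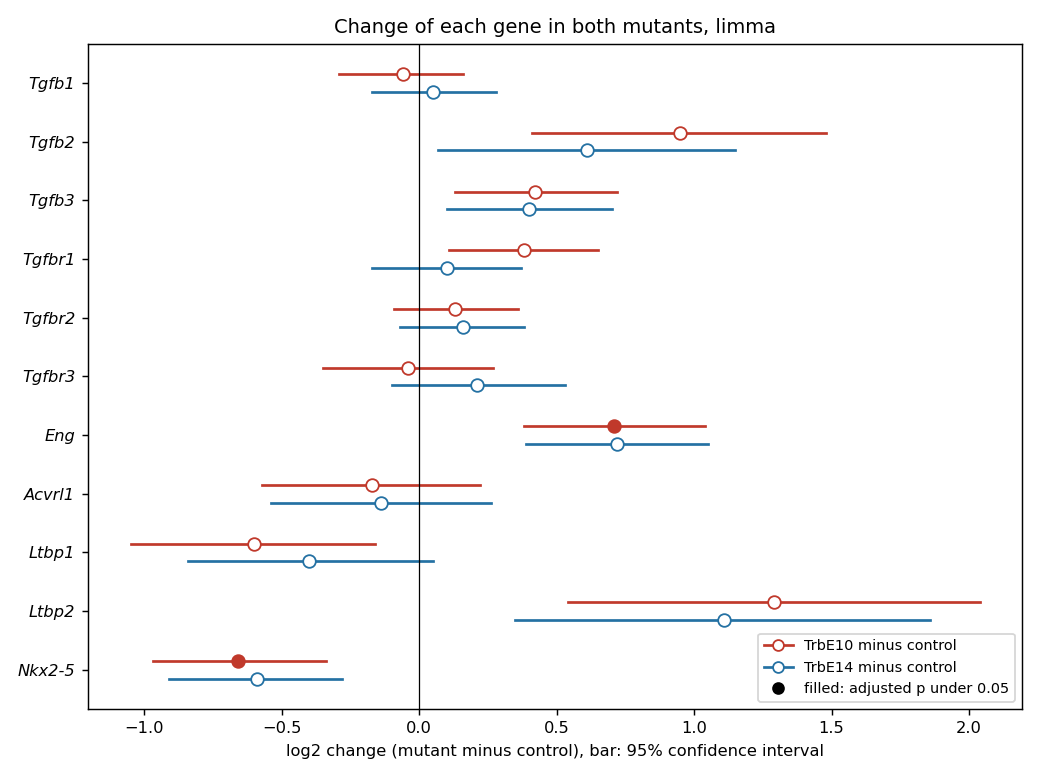
Log2 change of each gene in TrbE10 and TrbE14 against control (x axis), with bars for the 95% confidence interval of limma and filled points for an adjusted p under 0.05. Eng is filled in TrbE10 alone, although its values of 0.71 and 0.72 nearly coincide, and Nkx2-5 is in the lowest row.

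Between the mutants none of the 10 genes was called by limma or by SAM (0 of 10), with Tgfbr1 alone under an unadjusted p of 0.05, and the median difference was -0.01. Over all probes 0% were called, 5.76% passed the unadjusted p and 3.16% did not overlap. The intervals still allowed differences of some size: that of Tgfb2 was 0.34 (95% interval -0.20 to 0.87), or 0.15 without TrbE10 replicate 3 and 0.60 without TrbE10 replicate 2, and that of Ltbp2 0.19 (-0.56 to 0.94).

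Several genes shared the same order among the TrbE10 hearts. Of the 10 genes, 7 had their lowest TrbE10 signal in replicate 2, including Tgfb2, Tgfb3, Eng and Ltbp2, and 5 had their highest in replicate 3, including the same 4. After subtraction of the group means, Eng correlated over the 12 hearts with Tgfb2 (r = 0.94), Tgfb3 (r = 0.75) and Ltbp2 (r = 0.63), and also with the receptors Tgfbr1 (r = 0.65) and Tgfbr2 (r = 0.45). The value was -0.45 for Ltbp1, -0.13 for Tgfb1, -0.16 for Tgfbr3 and -0.02 for Acvrl1. These are descriptions over hearts that share arrays and normalization. Among the 5 genes whose log2 signal followed that of Eng most closely over the 12 hearts, of all genes tested, were Gpx3, a secreted glutathione peroxidase (r = 0.974), Fam26e (r = 0.964), the von Willebrand factor gene Vwf (r = 0.958) and Sfrp2, a secreted Wnt modulator (r = 0.957). With group means subtracted these values were 0.904, 0.907, 0.819 and 0.806.

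Because bulk tissue was measured, fewer cells of a type and less RNA per cell cannot be told apart, and markers of the cells that make these proteins are set beside the values. Of 12 endothelial markers Vwf alone was called, by 1.09 in TrbE10 (limma, adjusted p = 0.0215) and 1.03 in TrbE14 (adjusted p = 0.0451), and the median of the 12 was 0.16 and 0.17. By unadjusted p, 2 of the 12 were higher and 1 lower in TrbE10 and 5 were higher in TrbE14. Cdh5 had 0.33 and 0.40, with all mutant hearts above all controls, and Cldn5 had 0.50 and 0.87, whereas Robo4 had -0.43 and -0.09. The other 8, Pecam1, Kdr, Tek, Tie1, Emcn, Flt1, Esam and Egfl7, had changes between -0.10 and 0.43. The summed signal of the 12 was 54200 to 62300 in control, 64100 to 68500 in TrbE10 and 66000 to 76300 in TrbE14 hearts. Of 3 endocardial markers, Cytl1 was called in both mutants, by 2.07 (limma, adjusted p = 0.0025) and 1.73 (adjusted p = 0.0103), Npr3 in TrbE10, by 1.24 (adjusted p = 0.0247, and 1.00 with an adjusted p of 0.0967 in TrbE14), and Plvap in neither. Their summed signal was 1410 to 2270 in control, 3680 to 7590 in TrbE10 and 4180 to 5340 in TrbE14 hearts. With group means subtracted, Eng correlated over the hearts with Cytl1 (r = 0.88) and Vwf (r = 0.82). The values were lower for Npr3 (r = 0.40), Pecam1 (r = 0.51), Plvap (r = 0.29) and Cdh5 (r = -0.11). The remaining endothelial markers lay between -0.23 (Esam) and 0.35 (Flt1). Fibroblast markers and target genes of TGF-beta ranged from -0.07 (Dpep1) to 0.96 (Fn1), with 0.83 for Bgn. Without subtraction of group means, r with Eng was 0.96 for Vwf, 0.74 for Flt1, 0.69 for Cdh5 and 0.67 for Pecam1. The other endothelial markers then lay between -0.38 (Robo4) and 0.50 (Tek). Of the endocardial markers Cytl1 had 0.96, Npr3 0.84 and Plvap 0.53.

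Some macrophage and fibroblast markers were called as well. Of 9 macrophage markers 4 were called in TrbE10 and 1, Csf1r, in TrbE14. One of the 4, Fcgr1, was above background in no control heart (0 of 4) and was tested only because of the mutant hearts. For the 9 markers the summed signal was 8580 to 10800 in control, 16600 to 18700 in TrbE10 and 14000 to 15900 in TrbE14 hearts. Of 7 fibroblast markers Dcn was called, by 0.39 (limma, adjusted p = 0.0376) in TrbE10 and 0.50 (adjusted p = 0.019) in TrbE14. Thy1 of the same list had -0.54 (adjusted p = 0.0502) and -0.52 (adjusted p = 0.0895), with every mutant heart below every control, and Lum (0.11 and -0.14) and Ddr2 (-0.01 and 0.07) overlapped with control. The median of the 7 was 0.20 and 0.11. Their summed signal, to which Dcn gave the most, was 60500 to 65500 in control, 74400 to 89200 in TrbE10 and 82400 to 92700 in TrbE14 hearts. All 9 cardiomyocyte markers of the labelled tissue were measured, and none was called by limma in either mutant (0 of 9). By the unadjusted p, 2 in TrbE10 and 1 in TrbE14 were lower, with medians of -0.04 and 0.00. These were Ryr2 (-0.41, limma, adjusted p = 0.0918) and Actn2 (-0.19, adjusted p = 0.263) in TrbE10 and Myh6 (-0.21, adjusted p = 0.332) in TrbE14. For each, all hearts of that mutant lay below all controls. Myl3 had 18.32 in every TrbE10 heart, and Myh6 and Actc1 lay between 17.58 and 18.24 over all hearts. Quantile normalization gives all arrays the same set of values, which limits changes at the top of the signal range. For markers near that top, such as Myl3, Myh6 and Actc1, the absence of a call therefore says little. Over 10 further lists (lymphatic, smooth muscle and pericyte, atrial, platelet, erythroid, lymphocyte, mast cell, epicardial, adipocyte and skeletal muscle), 38 genes were measured. Of these, Pdgfrb, Sln, Pf4 and Cpa3 were called higher and Tnni2 lower in TrbE10, and Cpa3 higher in TrbE14. No other gene of their lists was called. In TrbE10 the atrial Sln had 3.80 and Nppa 2.07, whereas Myl7 had -0.12 and Myl4 -0.09. The platelet gene Pf4 had 0.53 and Ppbp -0.22, and the skeletal muscle gene Tnni2 had -1.38 and Tnnt3 -0.08. Pdgfrb had 0.37, where the smooth muscle and pericyte median was 0. Of the mast cell genes Kit had -0.16, Tpsb2 0.74 and Mcpt4 2.27. Cpa3, a mast cell protease, was above background in no control heart (0 of 4), in 3 TrbE10 and in 4 TrbE14 hearts, so it was tested only because of the mutants, in which it was at least 1.88-fold and 1.55-fold higher. The part of these cell types in the changes of Eng, Tgfb2, Tgfb3 and Ltbp2 was not tested.

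**Figure D3:**
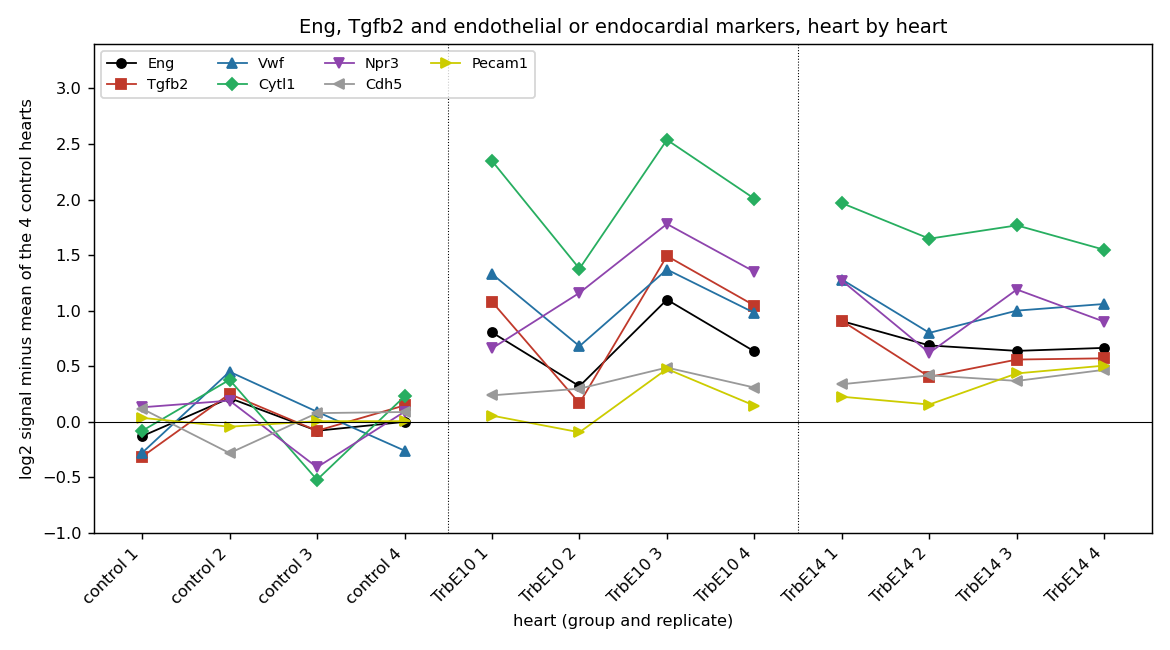
Log2 signal minus the mean of the 4 control hearts (y axis) for Eng, Tgfb2 and markers of endothelium (Vwf, Cdh5, Pecam1) and endocardium (Cytl1, Npr3) in each of the 12 hearts (x axis). Lines within a group only guide the eye. Among the TrbE10 hearts, Eng, Tgfb2, Vwf and Cytl1 are lowest in replicate 2 and highest in replicate 3.

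Further along the pathway, 1 of the 11 measured genes that hold or release latent ligand was called in each mutant, against 1.69% and 0.602% of all probes. Of 11 measured genes, Itgav, whose integrin activates latent TGF-beta, was called in TrbE10, where it had log2 signals of 7.26, 7.17, 7.48 and 7.27 against 6.68, 6.65, 6.23 and 6.51 in control (change 0.78, limma, adjusted p = 0.0359). In TrbE14 its change was 0.69 (adjusted p = 0.0897). Fbn1, which encodes fibrillin-1, the microfibril to which latency proteins attach, was called in TrbE14 by 0.67 (limma, adjusted p = 0.0142), with 9.22, 9.36, 9.48 and 9.34 against 8.56, 8.85, 8.67 and 8.64 in control hearts. In TrbE10 the change of Fbn1 was 0.29 (adjusted p = 0.191), and all TrbE10 hearts lay below all TrbE14 hearts, a difference with an unadjusted p of 0.00347 and an adjusted p of 0.528 in limma. Ltbp3 (0.16 and 0.15), Ltbp4 (0.29 and 0.47) and Thbs1 (0.42 and 1.30), which encodes an activator of latent ligand, were not called. The median of the 11 was 0.25 in TrbE10 and 0.39 in TrbE14, and 9 of the 11 had a mean change above 0 in each. By unadjusted p, 4 were higher in TrbE10 and 5 in TrbE14, with none lower (16.4% and 13.6% of all probes). Groups did not overlap for 1 of the 11 in TrbE10 and 3 in TrbE14 (10.1% and 9.43% of all probes).

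None of the 7 measured related receptors was called by limma (0 of 7), with 0 and 1 under an unadjusted p of 0.05 in TrbE10 and TrbE14. Among them was Bmpr2, the type II receptor for BMP ligands, at 0.28 and 0.40. Of 4 measured related ligands, Bmp10, a ligand of ALK1 and endoglin made by trabecular and atrial myocardium, stayed at background in the 4 control hearts (0 of 4 well above it). It was at least 4.19-fold higher in TrbE10 and at least 4.75-fold higher in TrbE14, set against the lowest signal that was well above background on each control array. These bounds were not tested. The limma test used the measured control values at background, with an adjusted p of 0.000253 in TrbE10 and 0.000282 in TrbE14. The probe was above background on the 8 mutant arrays alone and was tested because of them, and the controls (2.36, SD 0.01) have only a bound. A filter on 9 of 12 arrays would leave it out, and without any filter the adjusted p was 0.00172 and 0.00136. Inha, the inhibin alpha subunit, had a log2 change of -0.52 in TrbE10 and was called there (limma, adjusted p = 0.0182), beside -0.38 in TrbE14 (adjusted p = 0.107).

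Of 18 SMAD genes and regulators, Smad6, an inhibitory SMAD that is itself a target of BMP signalling, was called in both mutants. Its log2 signal was 7.62, 8.16, 7.47 and 7.65 in control hearts, 9.68, 9.45, 10.38 and 10.12 in TrbE10 hearts and 9.93, 9.68, 9.73 and 9.96 in TrbE14 hearts. The groups were separated by more than 1 log2 unit, with changes of 2.19 (limma, adjusted p = 0.00043) and 2.10 (adjusted p = 0.000815). Smad7, the other inhibitory SMAD, was above background in 2 of 4 control hearts and had changes of 1.37 (adjusted p = 0.127) and 1.17 (adjusted p = 0.26). The receptor-activated Smad2 (-0.10 and -0.17) and Smad3 (-0.16 and -0.14) were not called, and the median of the 18 was 0.05 in both mutants. Nor were Smad1 (-0.07 and -0.07), Smad5 (-0.12 and -0.21) and Smad9, which encodes SMAD8 (1.09 and 0.65). Smad9 was above background in 1 control heart, and all TrbE10 hearts lay above all controls. By unadjusted p, 5 of the 18 were higher in TrbE10 (16.4% of all probes), and 3 were higher and 1 lower in TrbE14 (13.6%).

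The 6 genes listed as targets of ALK1 and BMP signalling had medians of 0.68 in TrbE10 and 0.76 in TrbE14. Id2, an inhibitor of basic helix-loop-helix factors, was called in TrbE10 by 1.19 (limma, adjusted p = 0.0358) and had 0.81 in TrbE14 (adjusted p = 0.202). Id3 had 0.73 (adjusted p = 0.0618) and 0.72 (adjusted p = 0.103), with all mutant hearts above all controls, and Id1 had 0.63 and 0.95 with overlap. Of these 6, Tmem100 and Bmper had mean changes below 0 in both mutants, -0.74 and -0.53 for Tmem100.

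Among 18 measured target genes of TGF-beta none was called in either mutant (0 of 18), while by unadjusted p 8 were higher in TrbE10 and 7 in TrbE14 and none lower. The mean change was above 0 for 18 of 18 in TrbE10 and 17 of 18 in TrbE14, with medians of 0.48 and 0.44. Over all genes 45.2% and 44.1% lay above 0. Comp, a cartilage matrix protein, had the largest changes, 2.14 (limma, adjusted p = 0.0539) and 1.98 (adjusted p = 0.112). Postn, which encodes the matricellular periostin, had 1.06 in both mutants (adjusted p = 0.17 and 0.25), and the hearts of both mutants lay above all controls, with lowest values of 6.78 in TrbE10 and 7.10 in TrbE14 against a highest control of 6.77. Ctgf, connective tissue growth factor, had 1.12 and 1.37, and Tgfbi had 0.23 and 0.08. With group means subtracted, the fibronectin gene Fn1 followed Eng over the 12 hearts (r = 0.96), with changes of 0.36 and 0.31.

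**Figure D4:**
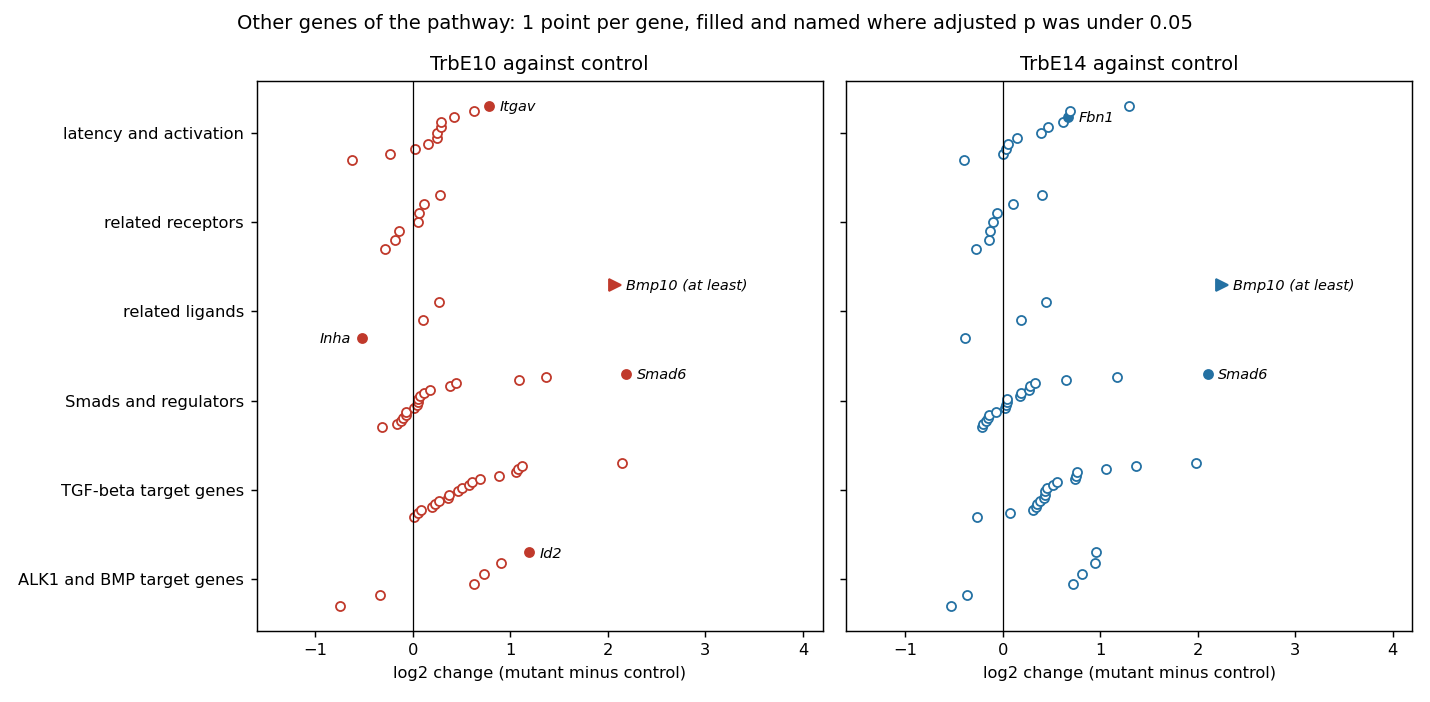
Log2 change against control (x axis) of the measured genes of 6 lists around the pathway in TrbE10 (left) and TrbE14 (right), with 1 point per gene. Filled, named points had an adjusted p under 0.05. The triangle for Bmp10 is a lower bound, and it is filled by the adjusted p of the measured values. Smad6 and Bmp10 are the genes filled in both mutants.

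Promoter sequences were set beside these values for the genes that a RefSeq table on GRCm38.p6 held. It had 9 promoters of 7 of the 10 genes, from 250 bases before the start to 50 after it. The NKX2-5 element TNAAGTG, searched on both strands, occurred in 1 of the 9, the second promoter of Ltbp1, and in 3790 of all 32851 promoters. The SMAD element CAGACA occurred in 3 of 9, one promoter each of Tgfb2, Tgfbr1 and Ltbp1, against 21% of all promoters. The BMP-SMAD element GGCGCC occurred in 1 of 9, the first promoter of Tgfbr1 (11.9% of all), while the SMAD palindrome GTCTAGAC (0.213% of all) and the ETS element CCGGAAG (8.86% of all) occurred in 0 of 9. A match is a description of letters, and no match says nothing of binding. The 250 bases before the start are shown for Eng and Tgfb2, which varied together over the hearts, and for the second promoter of Ltbp1, with matched letters in capitals, 5′ to 3′ along the gene. They lay at chr2:32646345-32646594 on the plus strand, chr1:186705990-186706239 on the minus strand and chr17:75178531-75178780 on the plus strand.
Eng promoter: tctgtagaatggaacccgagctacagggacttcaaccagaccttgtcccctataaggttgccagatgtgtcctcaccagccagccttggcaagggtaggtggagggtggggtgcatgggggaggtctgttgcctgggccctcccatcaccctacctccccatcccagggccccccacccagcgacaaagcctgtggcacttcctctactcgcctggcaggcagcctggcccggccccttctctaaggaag
Tgfb2 promoter: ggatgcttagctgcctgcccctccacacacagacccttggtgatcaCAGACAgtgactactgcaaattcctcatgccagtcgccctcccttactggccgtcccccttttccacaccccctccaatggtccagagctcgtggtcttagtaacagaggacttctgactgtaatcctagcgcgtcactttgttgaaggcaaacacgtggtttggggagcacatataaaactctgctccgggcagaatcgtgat
Ltbp1 second promoter: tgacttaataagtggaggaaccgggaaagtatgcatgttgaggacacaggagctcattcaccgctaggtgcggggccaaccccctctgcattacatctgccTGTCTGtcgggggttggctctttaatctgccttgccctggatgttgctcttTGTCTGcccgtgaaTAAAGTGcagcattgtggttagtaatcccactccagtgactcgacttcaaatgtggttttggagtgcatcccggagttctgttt
In the Tgfb2 promoter the capitals mark CAGACA, and in that of Ltbp1 they mark CAGACA on the opposite strand at 2 places and the match to TNAAGTG. The Eng window held none of the 5 elements.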

How the data were processed

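Total RNA of the left ventricle was labelled with Cy3 and hybridized to 12 one-colour Agilent mouse arrays. The authors deposited, per array, the output of Agilent Feature Extraction 10.5, in which the processed signal is a linear intensity after background subtraction within the array, not scaled between arrays. They also deposited a matrix of log2 values after quantile normalization. The 75th percentile of the signal ranged from 195 to 250 over the arrays, 22885 to 26145 probes were above background on an array, no spot was saturated (0), and precision is limited by the number of arrays.

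The log2 of the processed signal was quantile normalized with limma 3.58.1 in R 4.3.3, with data.table (version 1.17.8) and figures from Python 3.11.15 and matplotlib 3.10.9. Control spots and spots flagged as outliers were left out, and the mean was taken over repeated spots. A probe was tested when well above background on at least 3 of 4 arrays of any group. One mean per group was fitted over 12 arrays, and p-values were adjusted by Benjamini-Hochberg within each comparison. Adjusted p-values come from limma where no other tool is given. The script was tested on simulated data. For each gene the tested probe of highest mean signal was used, and other probes are given beside it. The sources do not say which mice shared a litter. The limma p-values set a group difference against a spread between mice that is pooled over all groups and moderated over all tested probes.

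The 10 genes and the 6 pathway and 15 cell type lists, written from general knowledge of such genes, were chosen with earlier results of these data known. The text names all 10 genes, with called genes of the pathway lists, a few genes of these lists named whether called or not, and the 5 genes most like Eng, except that values of some genes under this rule are not reported here. Other genes named in the text were chosen after their values were seen. The alternatives comprised 75th percentile scaling, normexp background correction (offset 50), requiring 9 of 12 arrays above background or none, the authors' own normalized matrix, fitting only the 2 groups compared, the replicate block, sex as a covariate, SAM, the mean of all tested probes of a gene, each array left out in turn and, chosen after seeing the data, the replicate block in the mutant groups only.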

Additional observations from a re-analysis of the deposited data

Results flagged for a closer look

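The 10 genes and Nkx2-5 give 33 sets of 4 hearts, and 2 of them held a heart far from the other 3, where chance gives about 1 in 20. For Tgfbr1 in control hearts, replicate 2 (7.36 against 7.16 to 7.18) had a gap of 0.867 of the range of the group. For Nkx2-5 in TrbE10 hearts, replicate 2 (11.67 against 11.21 to 11.27) had a gap of 0.861 of the range. The latter heart also had the lowest TrbE10 signal for 7 of the 10 genes.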

How the results depend on the processing

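Outside the comparison of the mutants, no change of Eng, Tgfb2, Tgfb3, Tgfbr1, Ltbp1 or Ltbp2 turned its direction under any alternative run. Whether Eng was called did depend on the setting. In TrbE10 it was no longer called, leaving 0 of the 10 genes, without a filter on background (adjusted p = 0.0985), with only the 2 groups compared (0.0961), with the replicate block (0.0899) and with SAM (0.0532), and sex as a covariate called 3 (Eng, Tgfb2 and Tgfb3). In TrbE14 it was called, 1 of the 10 genes, with normexp (adjusted p = 0.0437), only the 2 groups compared (0.0324), sex as a covariate (0.0101) and SAM (0.0132). The cause was not tested. Leaving out 1 heart at a time gave 0 to 2 called genes in TrbE10 and 0 to 1 in TrbE14, the highest in each without TrbE10 replicate 2 and in TrbE14 also without TrbE10 replicate 3.

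Over all probes, 416 were called in TrbE10, 148 in TrbE14 and 0 between the mutants. In TrbE10 there were 197 without a filter, 263 with only the 2 groups compared and 646 with SAM, and 159 to 709 with a heart left out. In TrbE14 there were 240 with normexp and 327 with SAM, and 83 to 190 with a heart left out. Between the mutants there were 1 with 75th percentile scaling, 2 without a filter, 1 with the replicate block and 3 with SAM, and 0 to 1 with a heart left out. For Nkx2-5 in TrbE10 the change stayed at -0.66 without a filter (adjusted p = 0.105) and with only the 2 groups compared (0.0676), no longer called in either, and ranged from -0.76 to -0.58 with a heart left out, called in 2 of 12 such fits.

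Between the mutants the small differences changed sign for Eng with normexp (0.03), Tgfb3 with sex as a covariate (-0.04) and Tgfbr2 with the mean of all tested probes (0.07). With a heart left out they ranged from -0.14 to 0.12 for Eng, -0.05 to 0.10 for Tgfb3, -0.06 to 0.04 for Tgfbr2, -0.16 to 0.09 for Acvrl1, -0.12 to 0.35 for Ltbp2 and -0.17 to 0.01 for Nkx2-5. Likewise Tgfb1 in TrbE14 ranged from -0.01 to 0.10 and Tgfbr3 in TrbE10 from -0.13 to 0.03. For Ltbp1 in TrbE14 the range was -0.52 to -0.19, and between the mutants that of Tgfb2 was 0.15 to 0.60. Deviations of hearts with the same replicate number correlated above 0.1 in 0 of 8 pairs with a control. Among the mutants they did so in 3 of 4 pairs (0.37, 0.31, -0.01 and 0.48). The main fits left the number out, and so ignore what mutant hearts of the same number may share. The source of this likeness was not tested. The replicate block changed no other call among the 10 genes. With the replicate block in the mutant groups only, chosen after seeing the data, 0 of the 10 genes and 0 probes were called, and the SE of the difference was 0.20 for Tgfb2 and 0.08 for Acvrl1, against 0.24 and 0.18 without the block. Low signal limits Smad7, above background in 2 control hearts, Smad9, above it in 1, and Bmp10, Fcgr1 and Cpa3, above it in none (0).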
